A study of Homo sapiens with 16 samples.

Results

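The mRNA levels of 10 genes that make microRNAs or carry out their silencing of mRNA were compared between lines of the human colon adenocarcinoma line SW480 in which Ajuba had been depleted or overexpressed. The genes were AGO1, AGO2, AGO3, TNRC6A, TNRC6B, TNRC6C, DICER1, DROSHA, DDX6 and DCP1A. They were chosen by symbol, by a rule that names no measured value but was made with earlier results of these data known, and are 10 of the 66023 genes in the count data. All 10 passed the filter on low counts in every comparison of 2 lines.

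RNA-seq was available for 16 samples of 6 lines, and all of them were SW480 cells at passages 10 to 18. Parental cells (n = 2) were unmodified. The other 5 lines were transduced with lentivirus and selected with puromycin. shScrambled (n = 2) carried a non-targeting shRNA, shAjuba1 (n = 3) an shRNA against the coding region of Ajuba, and shAjuba2 (n = 3) one against its non-coding region. Ajuba OE (n = 3) carried a construct for Ajuba overexpression whose name in the labels holds CMV, and Control (n = 3) carried that construct after the exogenous Ajuba sequence had been clonally excised. The sources used here do not say whether the samples of a line come from separate transductions, and the study calls its replicates technical, so p-values measure only the spread between these samples. A difference between lines can therefore not be told apart from a difference between transduced populations that has nothing to do with Ajuba. In a bulk sample, fewer cells that express a gene and less RNA per cell cannot be told apart either.

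A microRNA is transcribed as part of a longer RNA. DROSHA cuts the hairpin out of that RNA in the nucleus, and DICER1 cuts the hairpin to the mature length in the cytoplasm. The mature strand is loaded into an Argonaute protein (AGO1 to AGO4), which binds mRNA by the seed, the bases 2 to 8 of the microRNA. The Argonaute protein recruits a TNRC6 protein (TNRC6A, TNRC6B or TNRC6C, also called GW182), which brings the deadenylases of the CCR4-NOT and PAN2-PAN3 complexes. DDX6, an RNA helicase, and DCP1A, a cofactor of the decapping enzyme DCP2, act in the steps that follow and gather in processing bodies. Proteins of the Ajuba LIM family (Ajuba, LIMD1 and WTIP) are known parts of processing bodies and bind Argonaute proteins.

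The let-7 family is the best known case of a microRNA that also controls this machinery, since DICER1 mRNA is a let-7 target through its coding sequence. The sequences below are shown because the site of let-7 lies in several of the genes and because MIR100HG and MIR99AHG, which carry copies of let-7a and let-7c, differed between the lines. The microRNAs were taken from RefSeq (GRCh38.p14), with the seed in capitals. let-7a-5p is encoded at 3 places, and 1 of them, chr11:122146568-122146589 on the minus strand, lies within MIR100HG, together with miR-100-5p and miR-125b-5p. let-7c-5p is encoded at chr21:16539838-16539859 on the plus strand within MIR99AHG, together with miR-99a-5p and a second copy of miR-125b-5p.
let-7a-5p: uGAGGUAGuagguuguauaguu
let-7c-5p: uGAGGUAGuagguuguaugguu
miR-100-5p: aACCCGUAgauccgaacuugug
miR-99a-5p: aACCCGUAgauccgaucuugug
miR-125b-5p: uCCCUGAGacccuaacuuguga
Both hosts thus carry the same 3 seeds.

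The 8-base complement of the let-7 seed followed by A (CTACCTCA, searched on the strand of the transcript only) was looked for in the canonical transcript of each gene (GENCODE on hg38). It lies in the 3′ UTR of 2 of the 10 genes, AGO2 and AGO3, and in the coding sequence of 2, DICER1 and DDX6. DICER1 holds 3 matches, at chr14:95103748-95103755 and chr14:95103640-95103647 in exon 21 of 27, and at chr14:95094106-95094113 in exon 24. DDX6 holds 1 at chr11:118768268-118768275 in exon 5 of 14, and AGO3 holds 1 at chr1:36069088-36069095 in exon 19 of 19. Of all canonical transcripts, 3.75% hold a match in the 3′ UTR and 4.97% in the coding sequence. The 3′ UTR of AGO3 has 16755 bases and that of AGO2 has 11888 bases, against a median of 1064 bases over all canonical transcripts. A match is a description of the sequence and was not tested as a site. The matches are given in capitals within their neighbouring bases.
DICER1, exon 21, first match: cgtgcaaccaaCTACCTCAtattccattca
DICER1, exon 21, second match: tgctaacaaatCTACCTCAgatggaagtcc
DICER1, exon 24: gcgattttggaCTACCTCAtaaccaagcac
DDX6, exon 5: aagagcggtgcCTACCTCAttcccttactt
AGO3, 3′ UTR: cctgtcctcacCTACCTCActaaattgttg

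Between 30132396 and 69684675 read pairs were assigned to genes in each library. AJUBA, the targeted gene, had 83.4 and 81.6 RPM (the count divided by the library total and multiplied by 1e+06) in shScrambled, 49.6, 47.3 and 53.5 in shAjuba1, 60.3, 68.6 and 57.1 in shAjuba2, 89.6, 100.5 and 89.4 in Control and 549.7, 461.8 and 566.2 in Ajuba OE. The depletion was a log2 fold change of -0.73 ± 0.08 (SE) in shAjuba1 (adjusted p = 2.19e-05) and -0.46 ± 0.13 in shAjuba2 (adjusted p = 0.0773, from edgeR's quasi-likelihood fit with Benjamini-Hochberg adjusted values). Without shAjuba2 replicate 2 the latter was -0.55 (adjusted p = 0.000481). Replicate 2 of shAjuba2, Control and Ajuba OE stood apart, with 21.2%, 18.5% and 21.2% of their counts on mitochondrial genes and 1.37%, 1.79% and 2.26% on ribosomal protein genes, against 9.66% to 17.2% and 2.79% to 4.55% in the other 13 samples. The summed level of 9 colon epithelial markers was 2901 to 7008 RPM per sample. The highest of them were KRT8 (1487 to 3165 RPM) and KRT18 (1152 to 2847 RPM). CDX2 had 7.40 to 26.8 RPM, VIL1 8.88 to 59.1 and CDH1 3.92 to 36.2, and KRT20 and CEACAM5 were under 1 RPM in every sample. Marker sums of other cell types were 1.31 to 5.57 RPM (haematopoietic), 2.24 to 5.39 RPM (endothelial) and 6.21 to 37.6 RPM (fibroblast).

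All 10 genes were expressed in every sample, with counts of at least 1044. The level per kilobase of the canonical transcript, as the mean RPM over the 16 samples, was highest for DDX6 at 56.1 RPM per kb. DROSHA (15.2), TNRC6A (14.3) and DICER1 (13.1) formed the next group on this scale, followed by DCP1A (7.87), AGO1 (6.41) and AGO2 (6.28). TNRC6C (3.57), TNRC6B (3.41) and AGO3 (2.85) were lowest, while AGO4, the fourth Argonaute gene, had 2.34 RPM per kb. The genes varied little between the 6 lines. The mean of the highest line was 1.11 times that of the lowest line for DDX6 and 1.57 times for AGO2, and the median over the 10 genes was 1.31. The same median over the 9338 genes with at least 10 RPM in every line was 1.40. In a test of any difference among the 6 lines, 5 of the 10 genes were differentially expressed (DEG, adjusted p under 0.05, edgeR), beside 45.7% of the 23597 genes tested. These were DCP1A (adjusted p = 0.000139), AGO2 (0.000561), TNRC6C (0.00155), TNRC6A (0.00301) and DICER1 (0.0346). AGO1, AGO3, TNRC6B, DROSHA and DDX6 did not pass (adjusted p = 0.0658 to 0.711).

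**Figure D1:**
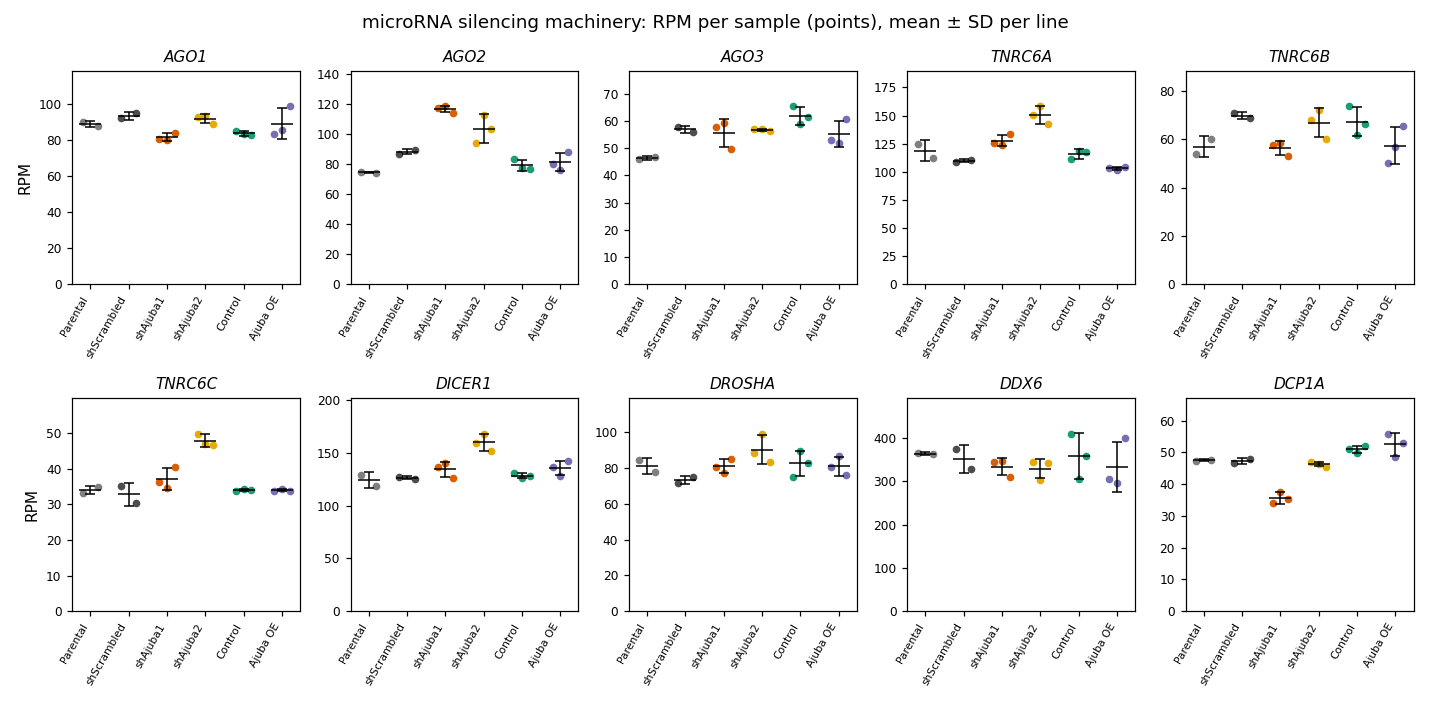
Level of each of the 10 genes in RPM (vertical axes, from 0) in every sample (points) of the 6 lines (horizontal axes), with the mean and SD of each line as bars. DCP1A lies lowest in shAjuba1, where its 3 samples have 33.9 to 37.6 RPM, and AGO2 lies highest there, with 114.3 to 118.5 RPM.

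The Argonaute genes encode the proteins that hold the microRNA, and AGO2 is the Argonaute protein best known for cutting its targets. AGO2 (chromosome 8) had 117.3, 118.5 and 114.3 RPM in shAjuba1, 93.9, 113.0 and 103.6 in shAjuba2, 86.9 and 89.4 in shScrambled, 74.8 and 74.2 in Parental, 83.5, 77.4 and 76.8 in Control and 79.7, 76.3 and 87.8 in Ajuba OE. The 3 samples of shAjuba1 lay above all other 13 samples, and those of shAjuba2 lay above both samples of shScrambled. AGO2 rose in shAjuba1 against shScrambled, by a log2 fold change of 0.39 ± 0.08 (adjusted p = 0.00175, edgeR). In shAjuba2 the value was 0.19 ± 0.14 (adjusted p = 0.426), and the direct contrast of shAjuba1 with shAjuba2 gave 0.22 (95% interval -0.04 to 0.48, adjusted p = 0.205), so a difference between the knockdown lines was not shown. Over 12 alternative analyses the value in shAjuba1 ranged from 0.38 to 0.62 and its adjusted p from 1.17e-07 to 0.0293. AGO2 was also higher in shScrambled than in Parental (0.24 ± 0.08, adjusted p = 0.0189). With Parental in place of shScrambled the difference of shAjuba1 was 0.62 (adjusted p = 8.45e-05).

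AGO1 and AGO3 are neighbours on the plus strand of chromosome 1, AGO1 at chr1:35869808-35930532 and AGO3 at chr1:35930718-36072500. AGO1 had 80.8, 80.2 and 84.3 RPM in shAjuba1 and 92.2 and 95.2 in shScrambled, while the samples of the other 4 lines ranged from 82.8 to 99.0 RPM. The 3 samples of shAjuba1 lay below those of shScrambled and overlapped with Control and Ajuba OE. The log2 fold change was -0.21 ± 0.08 (adjusted p = 0.0462), a call that was lost in 10 of 12 alternatives, among them DESeq2 (-0.20, adjusted p = 0.0773) and the fits without shScrambled replicate 1 (-0.21, adjusted p = 0.185), shScrambled replicate 2 (-0.20, 0.221), shAjuba1 replicate 1 (-0.20, 0.192) and shAjuba1 replicate 2 (-0.20, 0.120), and that with Parental as the control line (-0.15, 0.121). AGO3 had 46.0 and 46.9 RPM in Parental and 49.6 to 65.5 RPM in the 14 samples of the transduced lines. Its 2 Parental samples were the lowest of all 16. AGO3 rose in shScrambled against Parental (0.29 ± 0.08, adjusted p = 0.00609) and had a value of 0.43 ± 0.11 in Control against Parental (adjusted p = 0.133). Against the matched control it did not pass, at -0.05 ± 0.10 (shAjuba1), -0.05 ± 0.11 (shAjuba2) and -0.10 ± 0.10 (Ajuba OE).

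TNRC6A, TNRC6B and TNRC6C encode the scaffold between Argonaute and the deadenylases, and the genes of this family did not move as one. TNRC6A (chr16:24610209-24827632) had 125.7, 123.9 and 133.2 RPM in shAjuba1, 150.3, 158.3 and 142.6 in shAjuba2, against 108.6 and 110.6 in shScrambled. Parental had 125.1 and 112.1 RPM, Control 111.1, 118.5 and 117.9, and Ajuba OE 103.7, 101.3 and 103.7. The order of the line means was Ajuba OE, shScrambled, Control, Parental, shAjuba1 and shAjuba2. In RPM, the 3 samples of Ajuba OE were the lowest and the 3 of shAjuba2 the highest of all 16, while those of Parental overlapped with Control and with shAjuba1. With the normalization of the edgeR fits (TMM), the mean log2 CPM was 6.76 in both Ajuba OE and shScrambled. Its log2 fold change was 0.20 ± 0.08 in shAjuba1 (adjusted p = 0.0508), 0.41 ± 0.12 in shAjuba2 (adjusted p = 0.0856) and -0.11 ± 0.08 in Ajuba OE against Control (adjusted p = 0.572), so TNRC6A passed none of the tests against a control line. It did pass in 3 of 12 alternatives in shAjuba1 and in 4 of 12 in shAjuba2. In shAjuba1 these were DESeq2's size factors (0.21, adjusted p = 0.0448), library size alone (0.22, 0.0398) and the fit without replicate 3 of that line (0.18, 0.0280). In shAjuba2 they were DESeq2's test (0.41, adjusted p = 0.04998) and the replicate number as a block (0.45, 0.0299). The others were 1 fit over all 16 samples (0.42, 0.00427) and that without shAjuba2 replicate 2 (0.36, 0.0121). With Parental as the control line TNRC6A was at 0.08 in shAjuba1 (0.454) and 0.28 in shAjuba2 (0.163).

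TNRC6C (chr17:77958703-78108822) had 49.9, 46.9 and 46.8 RPM in shAjuba2 and 30.5 to 40.5 RPM in the other 13 samples. The 3 samples of shAjuba2 were the highest of all, and the highest sample of another line was 1 of shAjuba1. TNRC6C rose in shAjuba2 against shScrambled, by 0.50 ± 0.12 (adjusted p = 0.0492, edgeR). The call was close to the threshold. It was lost without shScrambled replicate 1 (0.61, adjusted p = 0.272), shScrambled replicate 2 (0.40, 0.433), shAjuba2 replicate 1 (0.50, 0.145) or shAjuba2 replicate 3 (0.53, 0.0619), and with Parental as the control line (0.43, 0.0548). In shAjuba1 the value was 0.16 ± 0.10 (adjusted p = 0.221), and the direct contrast of shAjuba1 with shAjuba2 was -0.32 ± 0.11 (adjusted p = 0.0599). The exons of TNRC6C share 1426 bp with TMC6 on the opposite strand, and the strand option of the counting is not given in the sources used here. The mean level of TMC6 was also highest in shAjuba2 at 198 ± 40.8 RPM (SD, n = 3) and lowest in Parental at 81.6 ± 5.06 RPM (n = 2), and its part in the level of TNRC6C was not tested.

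TNRC6B (chr22:40044817-40335808) had 57.5, 58.6 and 53.2 RPM in shAjuba1 and 70.9 and 68.8 in shScrambled. Parental had 53.9 and 60.2 RPM, shAjuba2 68.2, 72.3 and 60.3, Control 73.8, 62.0 and 66.3, and Ajuba OE 50.0, 56.7 and 65.4. The samples of shAjuba1 lay below those of shScrambled but overlapped with Parental. TNRC6B fell in shAjuba1 against shScrambled, and the log2 fold change was -0.32 ± 0.09 (adjusted p = 0.0101, edgeR). It was also higher in shScrambled than in Parental (0.29 ± 0.08, adjusted p = 0.00872), and with Parental as the control line the difference of shAjuba1 was -0.05 (adjusted p = 0.722). The call in shAjuba1 was lost without shScrambled replicate 1 (-0.28, adjusted p = 0.125) or replicate 2 (-0.35, adjusted p = 0.0582).

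DICER1 and DROSHA encode the enzymes that make microRNAs. DICER1 (chr14:95086228-95158010) had 159.5, 168.4 and 152.2 RPM in shAjuba2 and 118.7 to 141.9 RPM in the other 13 samples. The samples of shAjuba2 were the highest of all, and those of the other 5 lines overlapped with one another in part. The log2 fold change in shAjuba2 was 0.30 ± 0.12 (adjusted p = 0.178), which did not pass the test of the comparison, though a single fit over all 16 samples gave 0.30 with adjusted p = 0.0337. In shAjuba1 it was 0.07 ± 0.08 and in Ajuba OE 0.14 ± 0.09, neither of which passed. DROSHA (chr5:31400494-31532196) had 88.6, 99.4 and 83.2 RPM in shAjuba2, 80.5, 77.4 and 85.4 in shAjuba1 and 72.0 and 75.2 in shScrambled, while the samples of Parental, Control and Ajuba OE ranged from 75.3 to 89.7 RPM. Both samples of shScrambled were the lowest of all. The log2 fold change of DROSHA was 0.25 ± 0.13 in shAjuba2 (adjusted p = 0.278) and 0.12 ± 0.08 in shAjuba1 (adjusted p = 0.250).

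DDX6 and DCP1A act at the end of the pathway, where the target mRNA is repressed and decapped. DCP1A (chr3:53283429-53347586) had 33.9, 37.6 and 35.4 RPM in shAjuba1, 46.8 and 48.0 in shScrambled, 47.3 and 47.8 in Parental, 46.9, 46.4 and 45.6 in shAjuba2, 51.0, 49.9 and 52.1 in Control and 56.0, 48.6 and 53.1 in Ajuba OE. The 3 samples of shAjuba1 were the lowest of all 16, and no sample of another line was under 45.6 RPM. DCP1A fell in shAjuba1 against shScrambled, and the log2 fold change was -0.43 ± 0.09 (adjusted p = 0.00202, edgeR). The range over 12 alternatives was -0.47 to -0.39 with adjusted p from 1.69e-06 to 0.0350. With Parental as the control line it was -0.44 (adjusted p = 0.00172). In shAjuba2 the value was -0.08 ± 0.11 (adjusted p = 0.679), and the direct contrast of shAjuba1 with shAjuba2 was -0.33 ± 0.10 (adjusted p = 0.0496). That contrast called 1 of the 10 genes, DCP1A, beside 19.6% of the 21600 genes tested (10.1% lower in shAjuba1). The RPM of these lines did not overlap for 7 of the 10, beside 39.7% of all genes. Leaving out any replicate of shAjuba1, or replicate 1 or 3 of shAjuba2, took this count to 0, and leaving out replicate 2 of shAjuba2 took it to 3.

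DDX6 (chr11:118747763-118791164) had 344.9, 347.3 and 310.2 RPM in shAjuba1, 343.5, 303.2 and 341.1 in shAjuba2, 374.4 and 327.7 in shScrambled, 365.9 and 362.0 in Parental, 410.4, 305.6 and 359.0 in Control and 304.6, 295.7 and 400.5 in Ajuba OE. The lines overlapped, and the spread within Control and Ajuba OE was wider than the range of the 6 line means, 329 to 364 RPM. DDX6 passed no test, with log2 fold changes of -0.09 ± 0.09 for shAjuba1, -0.14 ± 0.13 for shAjuba2 and -0.04 ± 0.16 when Ajuba was overexpressed. The 95% interval in Ajuba OE was -0.42 to 0.34. The lowest samples of shAjuba2, Control and Ajuba OE were each replicate 2, the libraries with the most mitochondrial counts. Ajuba OE replicate 1 was almost as low, at 304.6 RPM, with 9.66% of its counts on mitochondrial genes, the lowest share of all. The part of library quality in this spread was not tested.

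**Figure D2:**
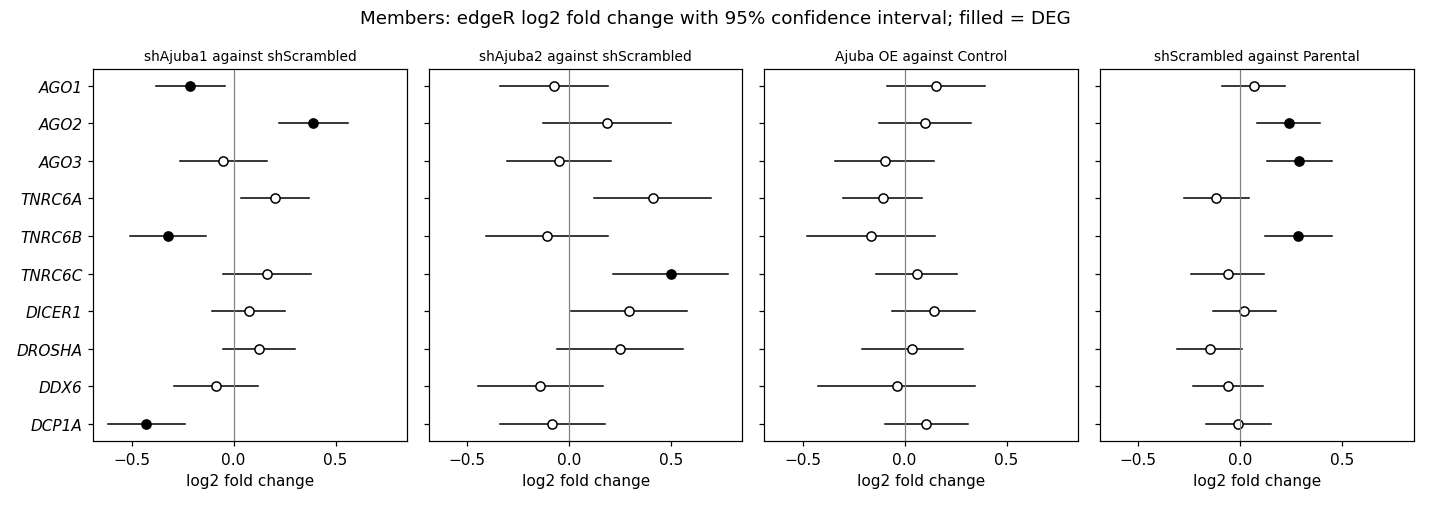
Log2 fold change (horizontal axes) of each of the 10 genes (rows) in 4 comparisons (panels) from edgeR, with 95% confidence intervals as lines. Filled points are DEG, and the panels hold 4, 1, 0 and 3 of them from left to right.

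In shAjuba1 against shScrambled, 4 of the 10 genes were DEG, beside 38.4% of the 21082 genes tested. AGO2 was higher, beside 18.2% of all genes, and DCP1A, TNRC6B and AGO1 were lower, beside 20.2%. The RPM of the lines did not overlap for 6 of the 10, beside 60.1% of all genes. The median log2 fold change of the 10 was 0.012, beside -0.0065 over all genes, and the median size was 0.18 beside 0.30. Without shScrambled replicate 1 or replicate 2, 2 genes were DEG, as was the case with Parental as the control line. In shAjuba2 against shScrambled 1 of the 10 was DEG, TNRC6C, beside 7.63% of the 22446 genes tested (3.19% higher), and 5 did not overlap, beside 47.6%. The median log2 fold change was 0.068, beside -0.0050 over all genes. The count was 0 without either shScrambled replicate and without replicate 1 or 3 of shAjuba2, and 2 without replicate 2 of shAjuba2. Both knockdown lines were compared with the same 2 shScrambled samples.

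In Ajuba OE against Control, where AJUBA rose by 2.56 ± 0.11 (adjusted p = 7.69e-05), 0 of the 10 genes were DEG, beside 5.43% of the 21140 genes tested. None of them had an unadjusted p under 0.05 in edgeR, against 18.6% of all genes, and DESeq2 also called 0. The smallest unadjusted p was 0.143, for DICER1. The log2 fold changes ranged from -0.17 ± 0.13 for TNRC6B to 0.15 ± 0.10 for AGO1. The 95% intervals of all 10 held 0 and lay between -0.48 and 0.39. The RPM of the lines did not overlap for 1 gene, TNRC6A, beside 25.4% of all genes. Without replicate 2 of both lines, an alternative chosen after the data had been seen, the count was also 0.

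The control lines differed from each other as well. In shScrambled against Parental, 3 of the 10 genes were DEG, beside 30.7% of the 21289 genes tested, and AGO2, AGO3 and TNRC6B were all higher in shScrambled, beside 15.0% of all genes. The RPM did not overlap for 6 of the 10, beside 65.2%. The count was 0 without Parental replicate 1 or shScrambled replicate 1 and 1 without Parental replicate 2. In Control against Parental 0 of the 10 were DEG, beside 0.370% of the 21644 genes tested, and AGO3 alone had an unadjusted p under 0.05 in edgeR, against 19.5% of all genes. The count was also 0 with DESeq2. The RPM did not overlap for 5 of the 10, beside 42.4%. Without Control replicate 2, 1 gene was DEG.

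The line means of some genes followed each other. Over the 6 lines, Pearson's r of the mean log2 CPM was 0.91 for TNRC6C with DICER1 and 0.89 for TNRC6A with TNRC6C, and the lowest values were -0.84 for AGO2 with DDX6, -0.83 for TNRC6C with DDX6 and -0.82 for AGO2 with DCP1A. These are descriptions over 6 means that share libraries, and shAjuba2 was the highest line for TNRC6A, TNRC6C and DICER1. DROSHA, with r of 0.73 with DICER1 and 0.69 with TNRC6C, was highest in shAjuba2 as well.

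The other genes of the pathway were taken from 5 lists with 60 genes, of which 59 were tested. In shAjuba1 against shScrambled 23 of the 59 were DEG (39.0%), close to the 38.4% of all genes. Of these 12 were higher and 11 lower, beside 18.2% and 20.2% of all genes. In shAjuba2 2 were DEG (3.39%, beside 7.63%), and in Ajuba OE against Control 1 (1.69%, beside 5.43%). In shScrambled against Parental, 21 were DEG (35.6%, beside 30.7%). Of these 2 were higher, beside 15.0% of all genes, and 19 were lower. The shares of all genes given here also stand beside the counts of each list below.

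**Figure D3:**
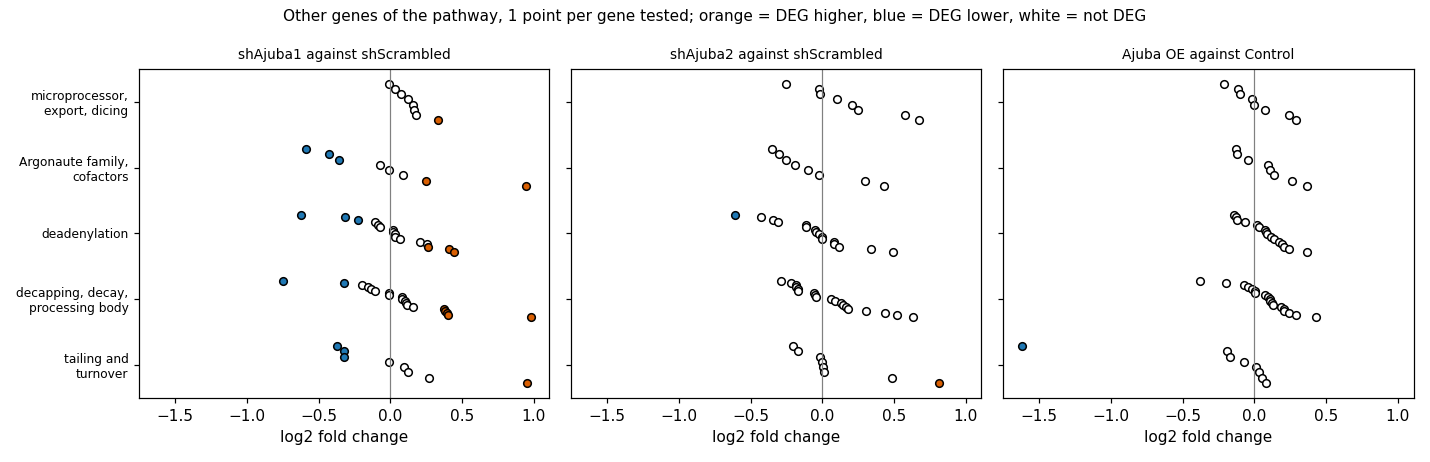
Log2 fold change (horizontal axes) of each of the 59 other genes of the pathway tested (points), in 5 lists (rows), for both knockdown lines and Ajuba OE against their controls (panels). Coloured points are DEG, and the panels hold 23, 2 and 1 of them from left to right.

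Of the 8 genes around DROSHA and DICER1 (microprocessor, export and dicing), 1 was called in shAjuba1. This was SRRT, which links cap-bound RNA to microRNA processing, at 0.33 ± 0.11 (adjusted p = 0.0301), a call lost without shScrambled replicate 1 (0.26, adjusted p = 0.223) or replicate 2 (0.41, 0.0607). Of the 8 Argonaute cofactors, 2 rose and 3 fell. AGO4 had 14.1, 14.4 and 14.4 RPM in shAjuba1 and 22.2 and 20.4 in shScrambled, and fell by 0.59 on the log2 scale (adjusted p = 0.000411). AGO4 was at 16.6 ± 0.87 RPM (SD, n = 2) in Parental and at 13.9 to 15.1 RPM in Ajuba OE, and with Parental as the control line the difference of shAjuba1 was -0.25 (adjusted p = 0.0629). IPO8, an importin that binds Argonaute, fell by 0.43 (adjusted p = 0.00228), a call lost without shScrambled replicate 1 (-0.35, adjusted p = 0.0647). FKBP4, a cochaperone of HSP90 in the loading of Argonaute, rose from 144.0 and 143.7 RPM in shScrambled to 277.9, 255.3 and 307.0 in shAjuba1 (0.94 ± 0.09, adjusted p = 4.81e-06), but Parental had 232.0 and 225.2 RPM, and against Parental the value was 0.26 (adjusted p = 0.0258). HSP90AB1, a cytosolic HSP90 chaperone, rose by 0.25 ± 0.09 (adjusted p = 0.0425) and was -0.15 (adjusted p = 0.169) with Parental as the control line. Its call was lost without shScrambled replicate 1 (0.34, adjusted p = 0.0524) or 2 (0.18, 0.265) and without shAjuba1 replicate 1 (0.26, 0.0905) or 2 (0.23, 0.151).

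The deadenylation list held 16 genes, of which 3 rose and 3 fell in shAjuba1. CNOT6 and CNOT6L are alternative catalytic subunits of the CCR4-NOT complex. CNOT6 had 97.0, 96.4 and 93.4 RPM in shAjuba1 and 119.3 to 153.5 RPM in all other samples, and fell by 0.62 against shScrambled (adjusted p = 5.74e-05). CNOT6L fell in both knockdown lines, by 0.31 in shAjuba1 (adjusted p = 0.0217) and by 0.61 in shAjuba2 (adjusted p = 0.0374), the 1 gene of this list called in shAjuba2. Both calls of CNOT6L were lost without shScrambled replicate 1 (-0.30, adjusted p = 0.147, and -0.61, 0.296) or replicate 2 (-0.32, 0.124, and -0.61, 0.290), without replicate 1 of the knockdown line (-0.33, 0.0606, and -0.69, 0.0731), and with Parental as the control line (-0.21, 0.112, and -0.50, 0.0643), and that of shAjuba2 also without its replicate 3 (-0.58, 0.0682). CNOT3, a regulatory subunit, rose by 0.41 ± 0.10 in shAjuba1 (adjusted p = 0.00557) and BTG2, an antiproliferative activator of deadenylation, by 0.45 ± 0.13 (adjusted p = 0.0138). Neither passed without shScrambled replicate 1 (0.34, adjusted p = 0.0944, and 0.35, 0.142). The exons of CNOT3 share 521 bp with LENG1 on the opposite strand.

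Of the 19 genes for decapping, decay and the scaffold of processing bodies, 5 rose and 2 fell in shAjuba1. In shScrambled against Parental, 0 of them were higher and 9 lower. XRN1, the exonuclease that degrades decapped mRNA, had 54.9, 56.6 and 47.2 RPM in shAjuba1 and 62.6 to 91.5 RPM in the other 13 samples, and fell by 0.75 against shScrambled (adjusted p = 5.74e-05). DCP2, the decapping enzyme whose cofactor is DCP1A, had 81.1, 93.7 and 73.8 RPM in shAjuba1 and 107.1 and 97.6 in shScrambled, and fell by 0.32 (adjusted p = 0.0291). The call of DCP2 was lost without shAjuba1 replicate 1 (-0.30, adjusted p = 0.0920) and with Parental as the control line (-0.19, 0.165). Its value was -0.23 without shScrambled replicate 1 and -0.39 without shScrambled replicate 2, fits with 1 control sample each. EIF4E2, a cap-binding protein that represses translation, rose from 31.9 and 31.8 RPM in shScrambled to 61.3, 65.2 and 64.0 in shAjuba1 (0.98 ± 0.09, adjusted p = 2.51e-06). Parental had 57.4 and 55.7 RPM of EIF4E2, and against Parental the value was 0.14 (adjusted p = 0.188). PATL1, a scaffold of decapping, rose by 0.38 ± 0.08 (adjusted p = 0.00195), and was -0.14 (adjusted p = 0.135) against Parental.

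The tailing and turnover list holds enzymes that add bases to microRNAs or degrade them. Of its 8 tested genes 1 rose and 3 fell in shAjuba1. TUT4 and TUT7, the uridylyltransferases of let-7 precursors, fell by 0.37 (adjusted p = 0.00416) and by 0.32 (adjusted p = 0.0185). Without shScrambled replicate 1 neither passed (-0.34, adjusted p = 0.0668, and -0.24, 0.231), and TUT7 did not pass without shScrambled replicate 2 (-0.40, 0.0525) or shAjuba1 replicate 1 (-0.30, 0.0826). TRIM71, a ubiquitin ligase that is also a textbook target of let-7, had 16.8, 19.0 and 17.9 RPM in shAjuba1, 17.5, 17.1 and 15.1 in shAjuba2, against 9.33 and 8.90 in shScrambled. Both knockdown lines lay above all samples of the other 4 lines. TRIM71 rose in both knockdown lines, by 0.96 ± 0.11 with the shRNA of shAjuba1 (adjusted p = 2.07e-05) and by 0.82 ± 0.14 with that of shAjuba2 (adjusted p = 0.0160), the latter call being lost without shScrambled replicate 1 (0.85, 0.180) or 2 (0.78, 0.221), without shAjuba2 replicate 1 (0.80, 0.0760) and against Parental (0.39, 0.110). Against Parental shAjuba1 was at 0.53 (adjusted p = 0.00273). LIN28A, a blocker of let-7 maturation, was low throughout, with 0.699, 0.755 and 0.774 RPM in Control and 0.273, 0.271 and 0.126 in Ajuba OE. It fell by 1.62 in Ajuba OE (adjusted p = 0.0239), and leaving out Control replicate 1 (-1.66, 0.0721), 2 (-1.61, 0.0704) or 3 (-1.59, 0.119) or Ajuba OE replicate 1 (-1.77, 0.0618) or 3 (-1.38, 0.0580) ended the call.

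Of the relatives of Ajuba, LIMD1 passed no test in the main comparisons, whereas WTIP did. The paper, which measured both genes by RT-qPCR, reports no change of either with Ajuba knockdown. The difference between the 2 measures for WTIP was not tested. WTIP had 50.4, 50.8 and 71.5 RPM in shAjuba1, 49.3, 44.2 and 43.8 in shAjuba2, 26.7 and 33.6 in shScrambled, 31.5 and 31.7 in Parental, 26.5, 40.3 and 30.9 in Control and 20.9, 19.2 and 17.3 in Ajuba OE. Both knockdown lines lay above, and Ajuba OE below, all samples of the 3 lines with unmodified Ajuba. WTIP rose in shAjuba1 (0.91 ± 0.15, adjusted p = 0.000364), was 0.55 ± 0.14 in shAjuba2 (adjusted p = 0.0582) and fell by 0.71 in Ajuba OE (adjusted p = 0.0475). The call in Ajuba OE was lost without Control replicate 2 (-0.52, adjusted p = 0.0805) or 3 (-0.74, 0.153) and without Ajuba OE replicate 1 (-0.75, 0.120), 2 (-0.72, 0.0819) or 3 (-0.63, 0.201). In shAjuba2 WTIP passed in 7 of 12 alternatives. Among them were DESeq2's test (0.55, adjusted p = 0.0212), Parental as the control line (0.47, 0.0488) and the fit without replicate 2 of that line (0.56, 0.00258).

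MIR100HG and MIR99AHG, which carry copies of let-7a and let-7c, were low in all lines. Mature microRNAs were not measured in these mRNA libraries. Of 82 microRNA host genes listed, 43 to 47 were tested per comparison. In shAjuba1 5 of 43 rose and 9 fell, beside 38.4% of all genes called. In shAjuba2 6 of 47 rose and 2 fell, beside 7.63%, and in Ajuba OE 1 of 44 rose and 5 fell, beside 5.43%. MIR100HG was the 1 gene of all lists that was DEG in both knockdown lines and in Ajuba OE. The share of all genes DEG in all 3 comparisons was not taken, so this is not read as a result about the lists. MIR100HG had 0.754, 1.03 and 0.883 RPM in shAjuba1, 11.9, 15.2 and 12.0 in shAjuba2, 4.50 and 4.51 in shScrambled, 1.60 and 1.61 in Parental, 1.54, 1.63 and 2.00 in Control and 0.416, 0.271 and 0.352 in Ajuba OE. The lines did not overlap, except Parental with Control. Its log2 fold change was -2.38 ± 0.17 in shAjuba1 (adjusted p = 5.47e-07), 1.48 ± 0.18 in shAjuba2 (adjusted p = 0.00474) and -2.23 ± 0.23 in Ajuba OE (adjusted p = 0.00182), so that the knockdown lines stood on opposite sides of shScrambled. The call in shAjuba2 was lost without shScrambled replicate 1 (1.49, adjusted p = 0.0675) or 2 (1.48, 0.0714). Against Parental, shAjuba1 was at -0.90 (adjusted p = 0.00455) and shAjuba2 at 2.96 (adjusted p = 0.00152). Of the hosts called in shAjuba2, 2 fell, MIR2117HG and MIR3936HG, and both also fell in shAjuba1. With Parental as the control line (edgeR) MIR2117HG was at -0.85 in shAjuba1 (adjusted p = 0.00512) and -1.20 in shAjuba2 (0.0237). MIR3936HG was at -0.52 (0.00679) and -0.82 (0.0394). Without shAjuba2 replicate 1 neither passed in that line against shScrambled (-1.47, 0.0506, and -0.98, 0.0893). Their highest line means were 1.94 and 8.87 RPM.

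MIR99AHG had 1.15, 0.962 and 0.828 RPM in shAjuba1, 3.05, 2.64 and 2.08 in shAjuba2, 0.823 and 0.636 in shScrambled, 2.32 and 2.11 in Parental, 1.43, 1.45 and 1.46 in Control and 0.459, 0.354 and 0.377 in Ajuba OE. The samples of Ajuba OE were the lowest of all, and those of shAjuba2 overlapped with Parental. It rose in shAjuba2 against shScrambled (1.79 ± 0.26, adjusted p = 0.00927) and fell by 1.78 in Ajuba OE (adjusted p = 0.00235), while shAjuba1 was at 0.45 ± 0.25 (adjusted p = 0.182). The first of these calls rests on the control chosen, since against Parental the value in shAjuba2 was 0.16 (adjusted p = 0.601) and that in shAjuba1 was -1.18 (adjusted p = 0.000662). It was also lost without shScrambled replicate 1 (1.98, adjusted p = 0.0680) or 2 (1.60, 0.131) or shAjuba2 replicate 1 (1.68, 0.0506).

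Other hosts of let-7 were tested as well and are named here after their values had been seen. MIRLET7BHG, which carries let-7b and a further copy of let-7a, had 15.3 to 44.9 RPM over the 16 samples, and MIRLET7A1HG, which carries let-7a, let-7d and let-7f, had 3.30 to 7.89 RPM. Neither passed the test of any difference among the 6 lines (adjusted p = 0.173 and 0.112, edgeR), nor any main comparison. MIRLET7IHG, which carries let-7i, had 4.19, 4.41 and 5.05 RPM in shAjuba1, 5.79 and 6.38 in shScrambled and 4.09 and 3.21 in Parental. It passed the test over the 6 lines (adjusted p = 0.000882) and fell by 0.44 in shAjuba1 (adjusted p = 0.0177), but the call was lost without shScrambled replicate 1 (-0.49, 0.0635) or 2 (-0.37, 0.148), without shAjuba1 replicate 1 (-0.38, 0.0872) and with DESeq2 (-0.43, 0.0669), and against Parental the value was 0.30 (0.147).

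Of 7 textbook targets of let-7, 6 were tested, and LIN28B, at 0 in all but 1 sample, was not. For shAjuba1 2 fell and 1 rose, beside the 38.4% of all genes called, while 2 rose in shAjuba2, beside 7.63% called. TRIM71 is among them. HMGA2, a chromatin protein whose mRNA is the classic let-7 target, had 104.5, 107.3 and 112.2 RPM in shAjuba1, 243.8, 259.5 and 279.8 in shAjuba2, 198.9 and 179.3 in shScrambled, 122.2 and 115.1 in Parental, 123.4, 112.6 and 118.4 in Control and 94.8, 87.6 and 95.9 in Ajuba OE. The samples of Ajuba OE were the lowest and those of shAjuba2 the highest of all 16. HMGA2 fell by 0.82 in shAjuba1 (adjusted p = 5.30e-06) and was 0.42 ± 0.13 in shAjuba2 (adjusted p = 0.0999) and -0.29 ± 0.09 in Ajuba OE (adjusted p = 0.130). Against Parental it was -0.16 in shAjuba1 (adjusted p = 0.0993) and 1.08 in shAjuba2 (adjusted p = 0.00972), and shScrambled itself was above Parental by 0.67 (adjusted p = 5.86e-07). Without shAjuba2 replicate 2 the value in shAjuba2 was 0.41 (adjusted p = 0.0112). IGF2BP2, an mRNA-binding protein, fell by 0.44 in shAjuba1 (adjusted p = 0.000457), and its relative IGF2BP3 rose by 0.60 ± 0.13 in shAjuba2 (adjusted p = 0.0306), a call lost without shScrambled replicate 1 (0.59, 0.326) or 2 (0.62, 0.281), without shAjuba2 replicate 1 (0.64, 0.0985) and against Parental (0.30, 0.148). The exons of IGF2BP3 share 1521 bp with MALSU1 on the opposite strand.

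**Figure D4:**
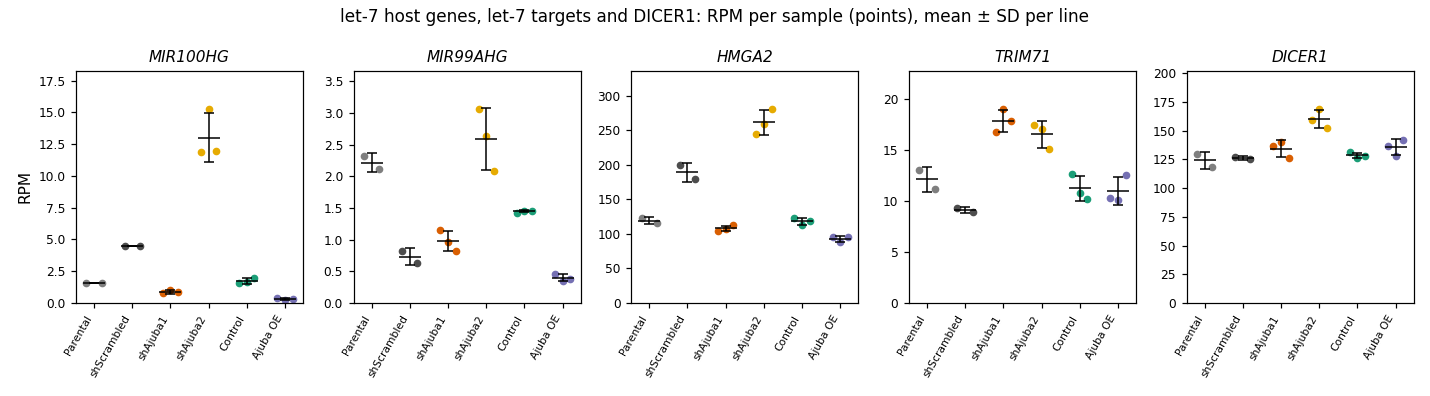
Level in RPM (vertical axes, from 0) in every sample (points) of the 6 lines (horizontal axes), with the mean and SD of each line, for 2 of the hosts of let-7 (MIR100HG and MIR99AHG), the let-7 targets HMGA2 and TRIM71, and DICER1. The mean of shAjuba2 is the highest in all panels but that of TRIM71, where shAjuba1 has 17.9 RPM and shAjuba2 16.6 RPM.

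Across the lines, HMGA2 and MIR100HG had the same order of means for Ajuba OE, shAjuba1, Control, Parental, shScrambled and shAjuba2 except that Control and Parental changed places, and these 2 lines overlapped for both genes. The pair was chosen for this comparison after the values had been seen. DICER1, with 3 matches to the let-7 seed in its coding sequence, had its highest level in shAjuba2 too, where MIR100HG was highest. The other line means of DICER1 did not follow MIR100HG. Ajuba OE came next after shAjuba2 for DICER1 but was lowest for MIR100HG. DDX6, the other gene with a match in the coding sequence, had its lowest mean in shAjuba2, at 329 RPM, though its lines overlapped. AGO2 and AGO3, with 1 match each in the 3′ UTR, did not share the order of MIR100HG either, since AGO2 was highest in shAjuba1 and AGO3 in Control. No relation between the host RNAs and the 10 genes was tested.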

How the data were processed

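RNA-seq was available for 16 samples of 6 SW480 lines, grouped by the sample labels. The authors prepared stranded mRNA libraries, aligned paired reads to GRCh38 with HISAT2 and counted them with featureCounts. They deposited raw counts per gene. Versions, strand option and annotation release are not given in the sources used here. The authors called DEG with DESeq2, used here as an alternative. Of 66023 genes, 56434 were matched to GENCODE v44.

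RPM is the count divided by the total of the sample and multiplied by 1e+06. Orders of the lines and statements on overlap are of RPM, without the TMM factors. Lines were compared with edgeR 4.0.16 in R 4.3.3 (filterByExpr, TMM, quasi-likelihood test, two-sided, only the samples of both lines). Standard errors were derived from the log2 fold change and its F statistic. Adjusted p-values are Benjamini-Hochberg over all genes tested, with DEG under 0.05. DESeq2 was version 1.42.0, and log2 CPM used a prior count of 2.

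The 10 genes and all lists were chosen with earlier results of these data known. Besides the 10 genes and AJUBA, the rule for named genes takes from each list up to 2 DEG per direction and comparison with the smallest adjusted p, and genes DEG in all 3 main comparisons. Values of named list genes outside these comparisons, and LIMD1, LIN28B, TMC6 and 3 let-7 hosts (MIRLET7A1HG, MIRLET7BHG, MIRLET7IHG), were added after their values were seen. MIR2117HG and MIR3936HG are given because they were lower in both knockdown lines. The remaining host genes other than MIR100HG and MIR99AHG are given only where they differed between the knockdown lines. No other sample's column was in the data.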

Additional observations from a re-analysis of the deposited data

Results flagged for a closer look

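The effects of the 2 shRNAs, both measured against shScrambled, differed by the direct test of shAjuba1 against shAjuba2 (edgeR's quasi-likelihood test, Benjamini-Hochberg adjusted) for the genes that follow. Of the 10 genes of the silencing machinery this was DCP1A alone, beside 19.6% of all genes, at a log2 difference of -0.33 (adjusted p = 0.0496). The genes outside the 10 had been named for a DEG call in a comparison that shares these samples, and MIR222HG and MIR1915HG are given because they differed here, so their number is not read against that share. Among the other genes of the pathway, AGO4 differed by -0.48 (0.0224), CNOT6 by -0.49 (0.0124), DCP2 by -0.48 (0.0219), TUT4 by -0.37 (0.0358) and XRN1 by -0.55 (0.00966), all lower in shAjuba1. FKBP4 at 0.53 (0.0462) and HSP90AB1 at 0.62 (0.0265) were higher in shAjuba1.

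Of the let-7 targets, HMGA2 differed by -1.23 (0.000121), IGF2BP2 by -0.49 (0.00898) and IGF2BP3 by -0.75 (0.00156). Of the microRNA host genes, MIR100HG differed by -3.84 (7.07e-06), MIR99AHG by -1.34 (0.00272), MIR222HG by -1.48 (0.00237) and MIR1915HG by 0.89 (0.000706). MIR222HG carries miR-221 and miR-222, which share the seed GCUACAU. Its level was 9.65, 9.66 and 9.11 RPM in shAjuba1 and 20.9, 38.8 and 21.8 RPM in shAjuba2.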

How the results depend on the processing

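AGO2 and DCP1A kept their direction and their call in shAjuba1 against shScrambled in all 12 alternatives run. The other calls of the 10 genes did not. The share of all genes called was taken for the main fits only. Counts under an alternative, here and above, are therefore not read as a result about the 10 genes. In shAjuba1 the count of 4 became 2 in 1 fit over all 16 samples and with Parental as the control line, and 2 to 5 with 1 replicate left out. In shAjuba2 the count of 1 became 0 with DESeq2's size factors, without the filter on low counts and with Parental, 2 with DESeq2's test and 3 over all 16 samples, and 0 to 2 with 1 replicate left out. In shAjuba1 against shAjuba2 the count of 1 became 2 with library size alone and over all 16 samples, 0 without the filter and with DESeq2, and 0 to 3 with 1 replicate left out. In shScrambled against Parental the count of 3 became 0 over all 16 samples and 0 to 2 with 1 replicate left out, and in Control against Parental the count of 0 became 0 to 1. The median log2 fold change of the 10 genes was -0.032 to 0.070 for shAjuba1 and 0.036 to 0.078 for Ajuba OE with 1 replicate, or replicate 2 of both lines, left out. It was 0.20 for shAjuba2 with Parental, and for Ajuba OE 0.068 with DESeq2's size factors, -0.016 with library size alone, 0.076 without the filter and 0.088 with DESeq2. The cause of these changes was not tested.

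Same-numbered replicates were not shown to be paired. Their deviations from the line means had a mean correlation of -0.011 (shAjuba1), 0.15 (shAjuba2) and 0.25 (Ajuba OE, -0.047 to 0.62), each with its control. With the replicate number as a block, the counts were 4 for shAjuba1 (median log2 fold change 0.064), 2 for shAjuba2, 0 when Ajuba was overexpressed, 0 in shAjuba1 against shAjuba2, 2 in shScrambled against Parental, 0 in Control against Parental and 5 over the 6 lines. AGO3 in shAjuba1 turned to 0.033 with the block.

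Some values changed sign, among them calls in shAjuba1 of HSP90AB1, PATL1 and MIRLET7IHG that turned with Parental as the control line. With 1 replicate left out, AGO3 in shAjuba1 ranged from -0.10 to 0.034 (without shAjuba1 replicate 3). With Parental as the control line AGO3 was at 0.23 in both knockdown lines and at 0.31 in Ajuba OE. With Parental, DROSHA was -0.032, HSP90AB1 -0.15, PATL1 -0.14, MIRLET7IHG 0.30 and MIR99AHG -1.18 in shAjuba1, and TNRC6B was 0.17 in shAjuba2 and 0.060 in Ajuba OE. DDX6 in shAjuba1 ranged from -0.19 to 0.034 (without shScrambled replicate 1). In Ajuba OE it ranged from -0.19 to 0.074 (without Control replicate 1) and was 0.045 without Ajuba OE replicate 1 and 0.030 without Ajuba OE replicate 2. In Ajuba OE, TNRC6C was -0.0045 and DROSHA -0.027 with library size alone. DROSHA ranged from -0.026 (without Ajuba OE replicate 2) to 0.099 with 1 replicate left out and was -0.020 without Control replicate 1. For pairs of replicates of 1 line, the median chi-square over genes was 1.87 to 14.3 times its value under counting noise alone. This is a ratio of squared deviations, over genes that reached a minimum summed count in the pair of samples. The part of depth in the errors of the 10 genes was not tested.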
